A study of Mus musculus with 2 samples.

Results

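The genes described here encode enzymes that add methyl groups to histone lysines (writers) or remove them (erasers), with their core partner subunits and 1 reader of a methyl mark. The members were listed by gene symbol, and all 36 were found among the 26037 genes of the expression table: 21 writers or writer subunits, 14 erasers and 1 reader. RNA came from RANKL-treated cultures of bone marrow-derived macrophages from C57BL/6 mice aged 6 to 8 weeks, with 1 library labelled control and 1 labelled MMP9 KO. Both had M-CSF, first at 5 and then, for 3 days, at 30 ng/ml, and both had RANKL for 3 days; RANKL is the cytokine that turns macrophages into bone-resorbing osteoclasts. The series title concerns cutting of the histone H3 tail during differentiation, and MMP9 is the secreted protease, highly expressed by osteoclasts, that the knockout targets. The column headings add "NCsh" to the control and "sh" to the knockout, letters that the labels do not explain, so how Mmp9 was targeted is not known here, nor whether each library pools several animals. With n = 1 per group there is no replicate check and no test between genotypes: each difference below describes these 2 libraries.

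Methylation of a histone lysine changes which proteins bind the nucleosome. Methylation of H3K4, H3K36 and H3K79 is best known from active genes, and methylation of H3K9 and H3K27 from silent ones. Writers take the methyl group from S-adenosylmethionine; the KDM1 erasers use FAD, and the larger JmjC family of erasers uses iron, oxygen and 2-oxoglutarate. In osteoclast formation repressive marks are known to be removed at genes such as Nfatc1. The RNA levels given here measure the enzymes' transcripts and none of these marks.

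The 2 libraries differed far beyond this family. Mmp9, the targeted gene, was 139.4 in control and 3.87 in knockout cells, 35.99-fold lower (30.8 to 42.3). Levels are normalised read counts, that is, reads multiplied by 1 factor per library and not divided by gene length. All 10 osteoclast markers were at least 2-fold lower in the knockout, and their levels summed to 6824 and 395.3. Both libraries are labelled as osteoclasts, whose defining genes Ctsk and Acp5 were 3745 and 42.9, and 1828 and 113.7. Mmp9 is itself one of these markers, so its low level does not check the targeting apart from the osteoclast genes. Of 9 macrophage markers 5 were higher and 1 lower, and their sum was 1008 and 1362; 3 of them (Fcgr1, Mrc1 and Mertk) were at 0 in the control. In the knockout these were 11.1, 0.119 and 0.0238, from 468, 5 and 1 reads, so only Fcgr1 of these was among the 5 higher. The 35 markers of neutrophils, B, T and NK, mast, stromal, erythroid and dendritic cells summed to 18.1 and 10.9, and 25 of them in control and 24 in knockout cells were at 0, the defining genes Ly6g, Ms4a1, Cd3e, Cpa3, Col1a1 and Flt3 among them in both. Itgax (11.2 and 0.665), Zbtb46 (4.398 and 1.24) and Lck (1.39 and 7.72) made up most of those sums. In bulk RNA a smaller share of osteoclasts and less RNA per osteoclast cannot be told apart, and the part of this shift in the values below was not tested.

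Kdm3a, Cbx8 and Dot1l had the lowest knockout over control folds of the 36 genes. At least 2-fold lower, with a pseudocount of 1 added to both levels, were 2 of 36 members (5.56%), Kdm3a and Dot1l, against 9.58% of the 11126 genes whose mean level reached 1. At least 2-fold higher were 0 of 36, against 4% of all compared genes. At the looser limit of 1.5-fold, 4 members (11.1%) were lower, Kdm4b and Cbx8 in addition, against 23.2% of all compared genes, and 0 were higher, against 8.56%. The shares of members past either limit were below those of all genes in both directions, but each rests on at most 4 members, and the gap was not tested. The split depends on the scaling: with the median log2 ratio of all genes set to 0, 7.18% of them were lower and 5.08% higher at 2-fold, and of the members 1 was lower and 0 higher. At 1.5-fold that scaling gave 16.5% lower and 13.1% higher over all genes, and 4 members lower and 3 higher (Kdm4a, Ezh2 and Suz12). All 36 members were above a level of 1 in both libraries, so none passed the level filter through 1 library alone.

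**Figure D1:**
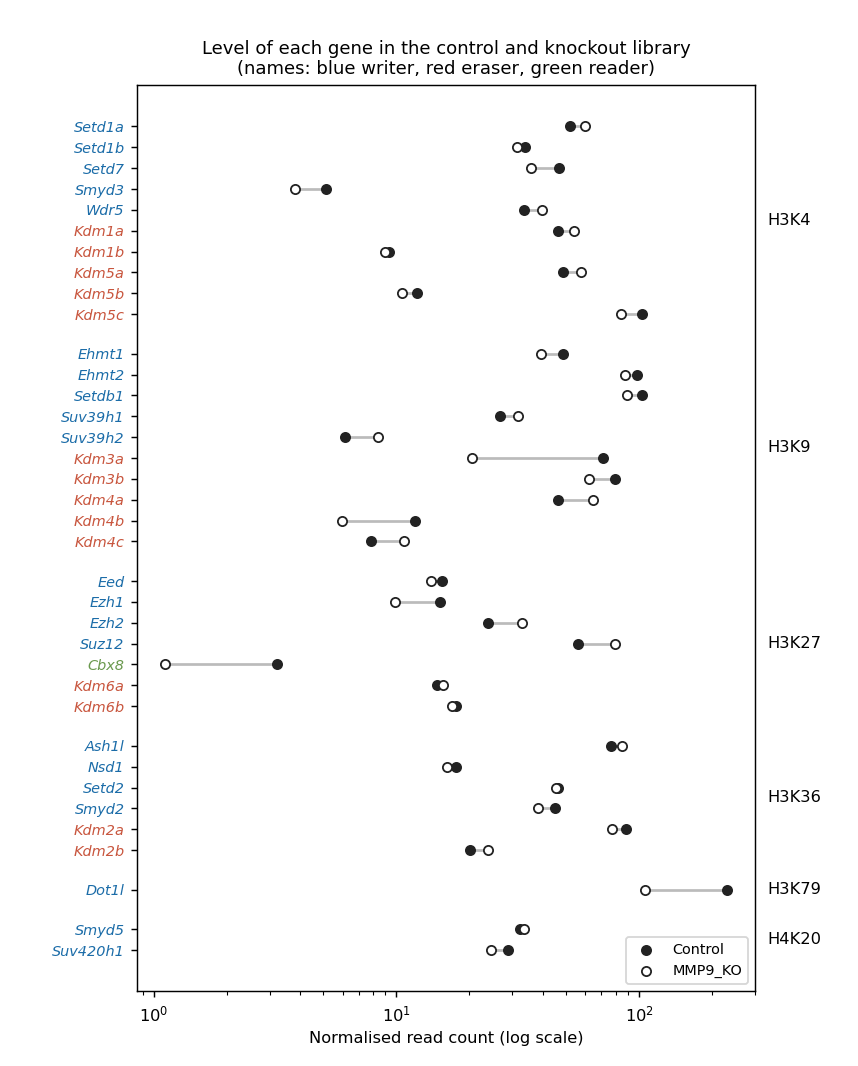
Normalised read counts of the 36 genes on a log scale, ordered by target residue, with the control as filled and the knockout as open circles joined by a line; 1 library each, so there are no error bars. Dot1l had the highest level in both libraries (230.2 and 106.3), and the longest lines belong to Kdm3a and Cbx8.

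The log2 ratio (knockout over control, pseudocount 1) had a median of -0.12 over the members and -0.16 over all compared genes. The interquartile range ran from -0.29 to 0.23 for the members and from -0.55 to 0.17 for all compared genes. Writers had a median of -0.12 (n = 21) and erasers of -0.05 (n = 14), and their ranges overlapped, from -1.11 to 0.50 and from -1.74 to 0.48. Setting the median of all genes to 0 multiplies the knockout by 1.13, a log2 shift of 0.18, and the median of writers then comes to 0.049; ratios are therefore also given relative to all compared genes. Over the deposited scaling, 3 other scalings and centring by transcript GC content or length, 9 members were below 0 each time, 14 were above 0 each time and 13 changed sign.

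**Figure D2:**
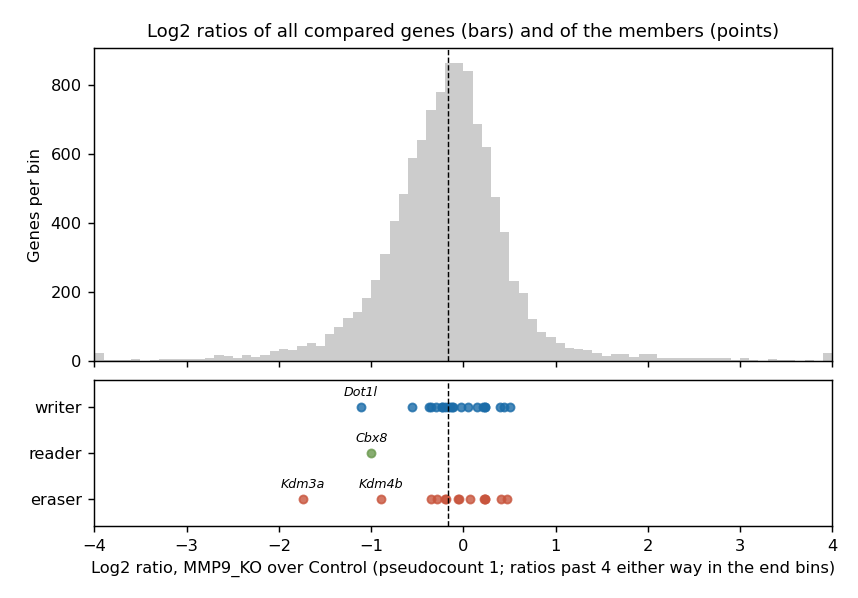
Upper panel, number of compared genes per bin of log2 ratio; lower panel, the 36 members by role, 1 point per gene; the dashed line is the median of all compared genes at -0.16. The members lie between -1.74 and 0.50, and 32 of them between -0.56 and 0.50; the 4 labelled ones lie lower.

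Among the H3K9 erasers, Kdm3a differed most. KDM3A removes mono- and dimethylation from H3K9 and is a textbook hypoxia-inducible gene. Kdm3a (ENSMUSG00000053470, minus strand, chr6:71588972-71632990 in GRCm38) was 71.0 in control and 20.5 in knockout cells, from 2856 and 864 reads. It was 3.46-fold lower (95% counting interval 3.20 to 3.74), with a log2 ratio of -1.74, or -1.58 relative to all compared genes. Its ratio was the 319th lowest of 11126, and it was the member that stayed at least 2-fold lower under each of the 9 alternatives, between -1.79 and -1.47. Those alternatives that change only the level filter cannot move the value of Kdm3a. Its paralogue Kdm3b was 79.6 and 62.3, so the pair stood at a similar level in the control and apart in the knockout.

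The KDM4 erasers, which act on trimethylated H3K9 and also on H3K36, went both ways. Kdm4b was 11.9 in control and 5.96 in knockout cells, 1.996-fold lower (1.71 to 2.33). Kdm4a was 46.3 and 64.7, 1.399-fold higher (1.32 to 1.48). Kdm4c was 7.83 and 10.7, 1.37-fold higher (1.19 to 1.59). These signs held under each scaling and centring, although Kdm4b came to -0.45 after centring by transcript GC content.

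The H3K9 writers varied less. Ehmt2 (G9a), which places H3K9 mono- and dimethylation with its partner Ehmt1 (GLP), was 98.2 and 87.2, and Ehmt1 was 48.8 and 39.5. Setdb1, a writer recruited to silence retroelements among other targets, was 102.8 and 89.4. Ehmt1 was below 0 under each scaling and centring, whereas Ehmt2 and Setdb1 changed sign. Both enzymes of pericentric heterochromatin were higher under each of them: Suv39h1 was 26.7 and 31.6, and Suv39h2 was 6.14 and 8.41. Centring by GC content put Ehmt2 (0.39) beside Suv39h1 (0.40) and Suv39h2 (0.34). The median log2 ratio of the 5 writers was -0.17 and that of the 5 erasers -0.35, and the erasers spanned -1.74 to 0.48 against -0.30 to 0.40 for the writers. Summed per kb of the longest transcript, the H3K9 eraser level was 41.5 in control and 31.8 in knockout cells and the writer level 60.7 and 56.2, so erasers over writers came to 0.684 and 0.565. This direction rested on Kdm3a: with it left out of the sums, an alternative chosen after the data were seen, the ratio was 0.443 and 0.490. The sums hold only the members put under H3K9. They leave out Kdm1a, put under H3K4 but also assigned to H3K9, at 15.2 per kb in control and 17.9 in knockout cells. Other H3K9 genes outside the members, such as Jmjd1c and Setdb2, are left out too. The size of the ratio thus depends on the list and does not show whether writers outweigh erasers.

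Dot1l was the other member past 2-fold with a pseudocount of 1. DOT1L is the H3K79 methyltransferase and, unlike the other catalytic writers here, has no SET domain; the list holds no eraser of this mark. Dot1l (ENSMUSG00000061589, plus strand, chr10:80755206-80795461) was 230.2 in control and 106.3 in knockout cells, from 9266 and 4474 reads. It was 2.17-fold lower (2.09 to 2.25), at -1.11, or -0.95 relative to all compared genes. Per kb of transcript it ranked first of the 36 in the control (33.8) and sixth in the knockout (15.6), where Smyd2 ranked first (22.4). Unlike Kdm3a, it fell short of 2-fold under each of the 3 other scalings and after centring by GC content (-0.72), and stayed below 0 throughout. The DOT1L partners of the AF9, ENL and AF10 kind and the AFF scaffolds (Mllt1, Mllt3, Mllt6, Mllt10, Aff1 and Aff4) were all within 2-fold, between -0.40 and 0.10.

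The H3K27 genes split within the complex that writes the mark. Polycomb repressive complex 2 has EZH1 or EZH2 as catalytic subunit on a core of SUZ12 and EED. Ezh2, the form linked to dividing cells, was 23.95 in control and 32.9 in knockout cells, 1.37-fold higher (1.26 to 1.49). Ezh1, the form of resting cells, was 15.1 and 9.91, 1.52-fold lower (1.34 to 1.73). The pseudocount of 1 brings the log2 ratio of Ezh1 to -0.56, just inside 1.5-fold, and at -0.60 with a pseudocount of 0.1 it was past it. The core subunit Suz12 was 55.8 and 79.5, the highest log2 ratio of the 36 at 0.50, whereas Eed was 15.4 and 13.9. Suz12 and Ezh2 thus lay above their control level and Ezh1 below it under each scaling, while Eed changed sign. Summed per kb, the 4 writer transcripts were 32.4 and 39.1, and erasers over writers were 0.158 and 0.132. That sum counts the core subunits Suz12 (12.8 and 18.2) and Eed (7.47 and 6.71) beside the catalytic Ezh2 (8.59 and 11.8) and Ezh1 (3.58 and 2.35). The size of the ratio thus depends on counting several subunits of 1 complex and is not a balance of enzymes. The ratio was lower in the knockout whichever of the 6 genes was left out, but without Suz12 it was 0.261 and 0.247. It was not computed after centring by GC content, which took the eraser Kdm6b to 0.50, so its direction under that setting was not tested.

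The H3K27 erasers had similar levels in the 2 libraries. Kdm6b (JMJD3), an eraser known from inflammatory macrophages and from RANKL-driven demethylation at Nfatc1, was 17.6 in control and 16.9 in knockout cells. Nfatc1, the main transcription factor of osteoclasts, was 378.4 and 176.6. Kdm6a (UTX) was 14.7 and 15.5. The counting intervals of both folds included 1, from 0.864 to 1.07 for Kdm6b and from 0.941 to 1.18 for Kdm6a. Centring by GC content left Kdm6a at 0.04 and took the GC-rich Kdm6b from -0.06 to 0.50. Cbx8, a chromodomain subunit of Polycomb repressive complex 1 that reads H3K27 methylation, was 3.23 and 1.12, from 130 and 47 reads. It was 2.89-fold lower with a wide interval (2.06 to 4.13); the pseudocount brings its log2 ratio to -0.999, just inside 2-fold, and at -1.45 with a pseudocount of 0.1 it was past it.

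**Figure D3:**
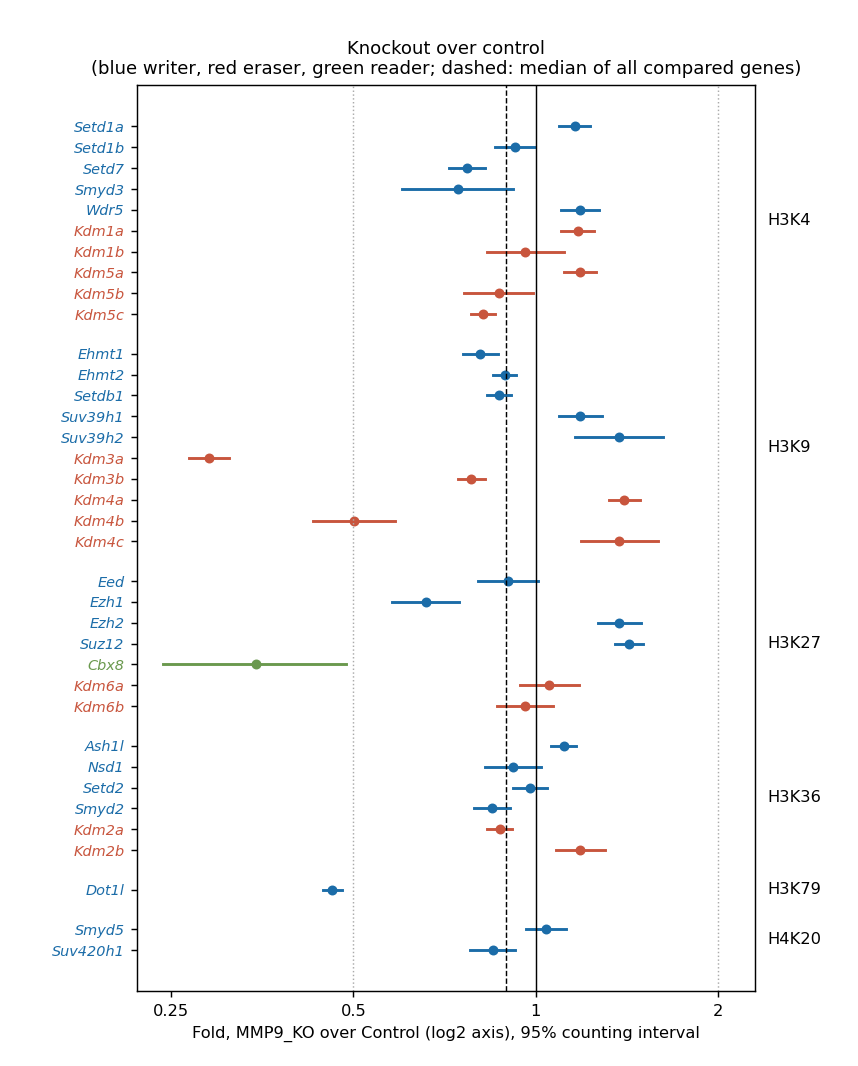
Knockout over control for each gene on a log2 axis, without a pseudocount; points are folds and bars 95% counting intervals from read numbers, which do not cover variation between cultures. The solid line is a fold of 1, the dashed line the median log2 ratio of all compared genes (pseudocount 1), and the dotted lines 2-fold; Kdm3a, Cbx8 and Dot1l lie left of the lower dotted line and Kdm4b on it.

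H3K4 enzymes stayed close to their control level in the deposited scaling. Centring by GC content took Setd1a to 0.59 and Setd1b to 0.33, and equal sums took Kdm5a to 0.52. Among writers, Setd1a, a catalytic subunit of the SET1 complexes, was 51.9 in control and 60.1 in knockout cells. The related Setd1b was 33.9 and 31.3. Wdr5, a core subunit shared by SET1 and MLL complexes, was 33.6 and 39.9. Setd7, a monomethyltransferase that also acts on non-histone proteins, was 46.7 and 35.97, and Smyd3 was 5.14 and 3.82; these last 2 were below 0 and Setd1a and Wdr5 above 0 under each scaling. Among erasers, the FAD-dependent Kdm1a (LSD1) was 46.1 and 54.1 and its paralogue Kdm1b 9.34 and 8.98. The JmjC erasers Kdm5a, Kdm5b and Kdm5c, which remove H3K4 trimethylation, were 48.8 and 57.7, 12.1 and 10.5, and 102.7 and 84.02. As deposited, each of the 10 genes lay between -0.37 and 0.24, with a median of -0.11 for writers and -0.05 for erasers. Summed erasers over writers per kb were 1.27 in control and 1.22 in knockout cells. This order turned without Wdr5 (2.06 and 2.15) or Kdm5c (0.752 and 0.817). The writer sum holds only the listed members and leaves out the MLL genes given below, so its size beside the eraser sum depends on the list.

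H3K36 and H4K20 enzymes also stayed close to their control level in the deposited scaling, between -0.23 and 0.23. Centring by GC content took Kdm2b to 0.53. Setd2, the writer of H3K36 trimethylation, was 46.3 in control and 45.3 in knockout cells. Of the writers of H3K36 dimethylation, Nsd1 was 17.7 and 16.2 and Ash1l was 76.9 and 85.4. Smyd2, which also methylates non-histone proteins, was 45.1 and 38.2. All 4 writers lay between -0.23 and 0.15, and only Ash1l kept its sign (above 0) under each scaling. The H3K36 erasers Kdm2a and Kdm2b were 88.7 and 77.4, and 20.2 and 23.9. H3K36 erasers over writers per kb were 0.356 and 0.374, an order that turned without Smyd2 (1.052 and 0.972) or Kdm2b (0.259 and 0.248). The eraser sum holds only Kdm2a and Kdm2b. It leaves out Kdm4a, Kdm4b and Kdm4c, which also act on H3K36 but were counted under H3K9. The ratio with them added was not computed, so its size and its change between the libraries depend on the list. The H4K20 writer Suv420h1 was 28.8 and 24.4, and Smyd5, to which H4K20 methylation has also been assigned, was 32.2 and 33.4.

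Paralogues were also compared within each library, a ratio that no factor per library can change. The ratios were not centred by GC content, which differs within pairs. It was 58.7% for Kdm4b and 43.7% for Kdm4c, and 45.5% for Kdm3a and 53.1% for Kdm3b. Of 14 pairs, 4 shifted by more than 1.5-fold between the libraries, and in 4 others the counting interval included 1. Reads of Kdm4a over Kdm4b were 3.89 in control and 10.9 in knockout cells, a change of 2.79 (2.36 to 3.30). Kdm4c over Kdm4b changed by 2.74 (2.21 to 3.40), whereas Kdm4a over Kdm4c was 5.91 and 6.03, so within this trio Kdm4b was the one out of step. Kdm3b over Kdm3a was 1.12 and 3.03, and Ezh2 over Ezh1 was 1.59 and 3.32, a change of 2.09 (1.79 to 2.43). The other families shifted less, by at most 1.45 (Kdm5a over Kdm5c). These ratios show unequal differences and not which paralogue stayed constant.

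**Figure D4:**
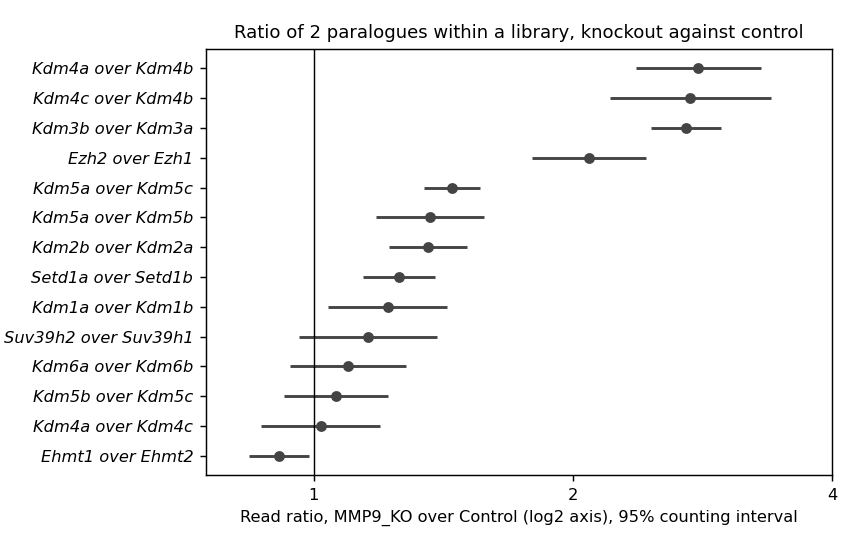
For each of 14 paralogue pairs, the ratio of reads in the knockout library over the same ratio in the control on a log2 axis; bars are exact 95% counting intervals. The 4 pairs with Kdm4b, Kdm3a or Ezh1 as the second gene lie at 2.09 or above, and the other 10 at 1.45 or below.

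Transcript composition moved with the ratios. Spearman's rho between the log2 ratio and the GC content of the longest transcript was -0.37 over the 36 members and -0.31 over 10707 compared genes; genes of one library share its depth, and these are descriptions across genes. Dot1l (57.5% GC), Kdm4b (58.7%) and Cbx8 (54.9%) are GC-rich and had low ratios, and Suz12 (41.6%) and Ezh2 (44.4%) are GC-poor and had high ones. Other GC-rich members did not follow this order: Ehmt2 (60.8%), Kdm6b (59.6%), Setd1b (59.02%) and Setd1a (56.96%) lay at -0.17, -0.06, -0.11 and 0.21. Centring by GC content moved these 4 to 0.39, 0.50, 0.33 and 0.59. Kdm3a, at 45.5%, lay far below genes of like composition and was -1.69 after centring by GC content. Centring brought Cbx8 to -0.69 and Ezh1 to -0.34, left Ezh2 at 0.45 and Suz12 at 0.48, and took Kdm4a to 0.79. The part of the GC trend in the differences was not tested beyond this centring.

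**Figure D5:**
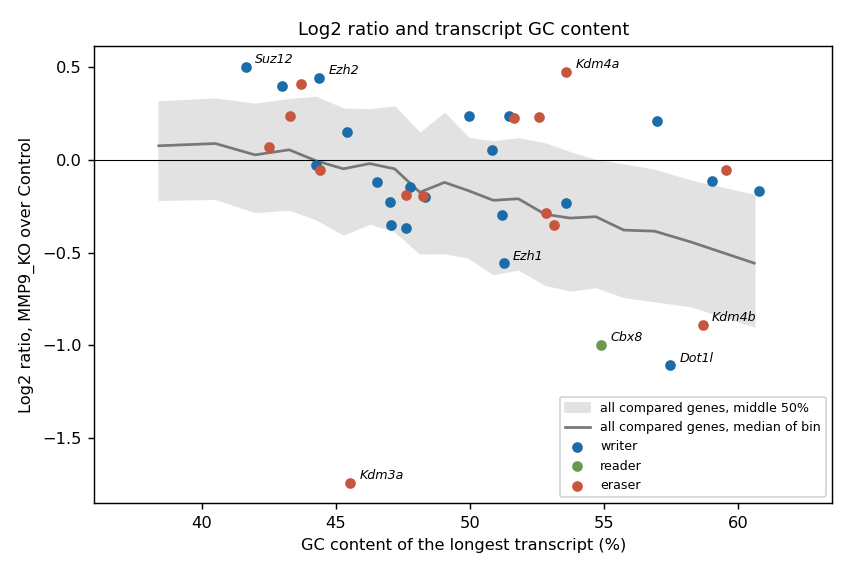
Log2 ratio (pseudocount 1) against GC content of the longest GENCODE transcript for the 36 members, coloured by role; the line and band give the median and interquartile range of all compared genes in 20 bins of GC content. Kdm3a, at 45.5% GC, lies well below the band, and Dot1l, Cbx8 and, near its edge, Kdm4b lie below it at higher GC content.

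The promoters of the 3 members with the lowest log2 ratios and of Suz12, the highest, are shown to let their composition and hypoxia-type motifs be compared, since Kdm3a is known to respond to hypoxia. Each runs 5′ to 3′ from 250 bases before to 50 after the start in RefSeq (GRCm38.p6); capitals mark the letters ACGTG or GCGTG on either strand, the core of hypoxia response elements, and ACGTG overlaps the E-box CACGTG. For Kdm3a, with 3 starts in RefSeq, the one nearest the gene's 5′ end was taken.
Kdm3a, chr6:71632868-71633167, minus strand: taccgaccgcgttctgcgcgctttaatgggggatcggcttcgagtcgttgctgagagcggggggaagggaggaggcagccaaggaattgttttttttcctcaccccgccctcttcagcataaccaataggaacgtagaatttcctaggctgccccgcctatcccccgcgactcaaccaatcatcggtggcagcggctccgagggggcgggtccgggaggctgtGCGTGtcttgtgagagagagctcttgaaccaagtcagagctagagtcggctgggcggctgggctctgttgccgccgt
Dot1l, chr10:80754953-80755252, plus strand: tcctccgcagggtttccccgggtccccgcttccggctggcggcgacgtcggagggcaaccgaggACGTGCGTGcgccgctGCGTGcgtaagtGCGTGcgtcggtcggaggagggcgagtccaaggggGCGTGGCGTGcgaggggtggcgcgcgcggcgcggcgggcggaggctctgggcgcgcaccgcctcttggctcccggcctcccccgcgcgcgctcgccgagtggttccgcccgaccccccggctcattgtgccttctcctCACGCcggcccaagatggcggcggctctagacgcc
Cbx8, chr11:119040864-119041163, minus strand: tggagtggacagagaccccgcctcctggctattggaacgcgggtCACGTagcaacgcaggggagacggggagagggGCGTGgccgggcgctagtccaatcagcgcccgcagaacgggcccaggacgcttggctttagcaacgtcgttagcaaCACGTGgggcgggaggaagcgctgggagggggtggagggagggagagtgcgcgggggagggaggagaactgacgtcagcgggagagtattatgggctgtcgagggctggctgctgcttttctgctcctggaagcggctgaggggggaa
Suz12, chr11:79992856-79993155, plus strand: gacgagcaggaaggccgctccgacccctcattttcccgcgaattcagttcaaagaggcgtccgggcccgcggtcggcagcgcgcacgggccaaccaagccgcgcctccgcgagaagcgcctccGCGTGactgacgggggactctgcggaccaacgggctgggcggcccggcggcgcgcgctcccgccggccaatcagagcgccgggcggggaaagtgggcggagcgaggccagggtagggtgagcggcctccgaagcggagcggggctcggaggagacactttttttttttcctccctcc

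Counted on both strands, so that CACGTG counts on each, the core occurred 1 time in the Kdm3a promoter, 7 times in that of Dot1l, 4 times in that of Cbx8 and 1 time in that of Suz12, so it was present at both ends of the range of ratios. A RefSeq promoter was matched for 27 of the 36 members, and 21 of the 27 (77.8%) held the core against 43.8% of 32851 promoters. The members' promoters are rich in CpG, the dinucleotide inside the core, with a median of 24 against 7 in all promoters. Among promoters with at least 13 CpG, a limit chosen after the values were seen, the shares were 80.8% of 26 and 70.5% of 12454. The AP-1 motif TGANTCA was in the promoters of Kdm5c and Kdm4a (7.41% of members, 7.81% of all promoters), CACGTG in those of Ehmt2, Cbx8 and Kdm6a (11.1% and 7.15%), and the interferon-type motif GAAANNGAAA in none of the 27 (3.44% of all promoters). A match is a run of letters and not a shown binding site.

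Beyond the 36, other genes of histone methylation were mostly within 2-fold as well. Of 76 listed genes for further MLL and SET writers, Polycomb subunits, H3K9 readers and cofactors of the erasers, 72 reached the level for comparison: 1 was lower, 1 higher and 70 within 2-fold, against 9.58% lower and 4% higher of all compared genes. At 1.5-fold 3 were lower and 4 higher, against 23.2% and 8.56%. The 72 had a median log2 ratio of 0.00008, that is 0.16 above that of all compared genes. The one at least 2-fold higher was Setdb2, an H3K9 methyltransferase known to be induced by interferon, at 8.13 in control and 23.6 in knockout cells (2.90-fold, 2.56 to 3.30). Its relative Setdb1, given above, lay at -0.20, or -0.04 relative to all compared genes, and changed sign over the scalings. The one at least 2-fold lower was Hmg20b, a subunit of the LSD1 and CoREST complex, at 30.8 and 11.5 (2.67-fold, 2.40 to 2.97), while the complex's Kdm1a and Rcor1 were within 2-fold. The 4 MLL genes, which also write H3K4 methylation (Mll1, Mll2, Mll3 and Wbp7), lay between -0.34 and -0.19. The methyl donor genes Mat2a, Mat2b and Ahcy lay between -0.13 and 0.13.

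Reads of overlapping genes could have been counted with some members, since use of strand is not known. Exons of 17 of the 36 overlap those of another gene in GENCODE M21, over 51.85% of the exon bases of Setd1a, 29.96% of Smyd2, 24.6% of Kdm3b and 14.55% of Suv39h1, and less in the others. Suv39h2 shares 8.095% with Dclre1c, which was 9.69 in control and 23.8 in knockout cells. Kdm1b shares 9.19% with Dek, which was 59.4 and 73.2. How far such reads enter the levels of Suv39h2 and Kdm1b was not tested. Kdm3a, Dot1l, Cbx8, Kdm4b and Ezh1 have no such overlap. Kdm5c and Kdm6a have near copies on the Y chromosome, Kdm5d (9.42 and 10.9) and Uty (6.11 and 7.55), with which they may share reads.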

How the data were processed

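RNA of 1 control and 1 knockout library was analysed. Reads were aligned with TopHat to mm9, per the submitters' processing notes; which program counted them, with which annotation and strand setting, and how they were normalised is not stated in those notes. The authors deposited log2 values under the title of normalised RPKM. After conversion from log2, 99.99% of the values lay within 0.05 of a whole multiple of 1 step per library (0.0248 and 0.0238), whatever the gene's length, so they were read as scaled read counts. Genes at 0.9 of the step were set to 0. The reads summed to 20678441 and 17741432.

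Ratios used a pseudocount of 1 on genes with a mean of at least 1. Folds used no pseudocount, with exact 95% (Clopper-Pearson) intervals that cover counting error only, since PCR copies cannot be told from separate molecules here. The limit that a count of 0 allows (3 reads) is 0.0745 for the control library and 0.0713 for the other. Transcript length, GC content and positions came from GENCODE M21 (GRCm38), another build than the alignment's, with 96.2% of compared genes matched. Calculations ran in Python 3.11.15 with scipy 1.17.1, tested on simulated data. Named were all members, Mmp9, other histone methylation genes past 2-fold and a few markers; other names were added after their values were seen. Members, lists and residue groups were chosen with earlier results of these data known. Each enzyme was put under the residue it is best known for.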

Additional observations from a re-analysis of the deposited data

How the results depend on the processing

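No paired analysis was possible because each group consists of 1 library; leaving one out would leave no comparison. Of the 322 alternative values of single members, 195 lay within the counting interval of the fold, once that interval was put on the log2 scale with a pseudocount of 1, and 127 outside it. The 195 include all values from the settings without a level filter and with a mean of at least 5. Those settings cannot move a member's ratio, so the count overstates how stable the values were. Kdm3a and Dot1l kept their sign throughout. The largest shifts of a member were 0.57 (Cbx8, pseudocount 5), 0.56 (Ehmt2, GC centring) and 0.45 (Cbx8, pseudocount 0.1), and the 3 scalings shifted members by at most 0.28. Members at least 2-fold lower numbered 2 as deposited and 1 (Kdm3a) with the median set to 0, a trimmed mean, equal sums or centring by GC content. With a pseudocount of 0.1 they numbered 3 (Cbx8 in addition), against 11.9% of all compared genes. Members at least 1.5-fold lower numbered 4 as deposited and 5 with a pseudocount of 0.1 (Ezh1 in addition). They numbered 3 with a pseudocount of 5 or a mean of at least 5 (without Cbx8) and after GC centring (without Kdm4b). Of all compared genes 23.2%, 26.3%, 15.4%, 23.0% and 14.7% were 1.5-fold lower under these settings in turn. Members at least 1.5-fold higher numbered 0 as deposited, 3 with the median set to 0, a trimmed mean or centring by length (Kdm4a, Ezh2 and Suz12 each time), 5 with equal sums (Kdm4c and Suv39h2 in addition) and, after GC centring, 2 (Kdm4a and Setd1a). Of all compared genes 13.1%, 13.4%, 12.6%, 17.1% and 12.1% were 1.5-fold higher under these settings in turn.

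Scaling moved the medians by construction. With the median of all genes at 0, the median log2 ratio was 0.049 for writers, 0.062 for H3K4 writers, 0.0077 for H3K9 writers, -0.17 for H3K9 erasers, 0.32 for H3K27 writers and 0.097 for H3K36 writers. With a trimmed mean these were 0.058, 0.070, 0.016, -0.16, 0.33 and 0.11, and 0.12 for erasers. With equal sums they were 0.15, 0.17, 0.11, -0.067, 0.42 and 0.20, with 0.21 for erasers and 0.21 for H3K4 erasers. Centring by GC content gave 0.081 for writers, 0.33 for H3K4 writers, 0.34 for H3K9 writers and -0.056 for H3K9 erasers. Centring by length gave 0.029 for writers, -0.076 for H3K9 writers and 0.32 for H3K27 writers. The mean in place of the median gave -0.0061 for H3K9 writers, and counting Kdm1a under H3K9 too gave -0.062 for H3K9 erasers. Other histone methylation genes at least 2-fold higher numbered 1 as deposited, 2 with equal sums (Setdb2 and Cbx6), 2 with a pseudocount of 0.1 (Setdb2 and Rcor2) and 3 after centring by GC content (all of these); the 1 lower became 0 after that centring. The change of erasers over writers per kb between the libraries turned from 0.827 to 1.106 for H3K9 without Kdm3a, from 0.960 to 1.044 and 1.085 for H3K4 without Wdr5 or Kdm5c, and from 1.051 to 0.923 and 0.957 for H3K36 without Smyd2 or Kdm2b; leaving out members was chosen after seeing the data. The cause of these moves was not tested beyond the shift itself. Depth limits Cbx8 most, with 47 reads in the knockout.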
